A study of Mus musculus with 2 samples.

Results

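The Rab genes encode a large family of small GTPases of membrane trafficking. They were taken as every protein-coding gene of the mm10 annotation whose symbol is Rab followed by a number, with or without a letter, which gave 59 genes of 21887. Their KAT8 peaks were read from 2 deposited lists of CUT&Tag, an assay in which an antibody brings a transposase to a chromatin protein so that the DNA around it is cut and tagged. KAT8 (also called MOF) transfers acetyl groups to lysines of histones and other proteins and works in the MSL and NSL complexes. The cells were wild-type primary macrophages grown from mouse bone marrow in 20 ng/ml M-CSF. The untreated group was 1 library and the R848 group, given 100 ng/ml of this TLR7 agonist for 2 h, was 1 library. Strain, sex, age and the number of animals behind each library are not stated in the labels. With 1 library a group there was no replicate check and no test between groups, and the counts and intervals below describe these libraries.

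Rab proteins switch between a GDP-bound form held in the cytosol and a GTP-bound form on a membrane. Each GTP-bound Rab recruits its own effectors, among them tethers, motors and lipid kinases, and so gives a compartment its identity and direction of traffic. Exchange factors load GTP, GTPase-activating proteins end the signal, and prenylation with GDI-mediated recycling returns the protein to the next membrane. In macrophages Rab proteins carry cargo from the early endosome to the lysosome, mature the phagosome, return receptors to the surface and send cytokines and proteases out. TLR7 itself signals from endosomes.

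The untreated list held 52001 peaks and the R848 list 44772. The peak names of the untreated list carry 0 h and those of the R848 list carry both 0 h and 2 h. Whether reads of the untreated library entered the calling of the R848 list, as sample or as control, is not stated, and this bears on every R848 fold, R848-only peak and overlap below. The height of a peak is given as the number of fragments that overlap its summit. The lowest local background was 3.37 fragments for untreated cells and 2.62 for R848, and the lowest summits called had 8 and 7 fragments. A gene without a peak can therefore hold signal under these limits, and a difference in presence can be a difference of a few fragments. Peaks are positions of the protein and do not measure expression. Of 8 macrophage genes (Spi1, Csf1r, Adgre1, Itgam, Cd68, Mertk, Fcgr1 and Cebpb), 3 had a gene-end peak in each library. Cd68 and Cebpb had gene-end peaks in both lists, and Csf1r, Adgre1, Itgam and Fcgr1 had no gene-end peak. In the gene or 1000 bp around it, 6 of the 8 had a peak in untreated cells and all 8 after R848. Of 10 markers of other cells (lymphoid, granulocytic, dendritic and stromal), 1 had a gene-end peak in each library. These were Siglech in untreated cells and Cd3d after R848. In the gene or 1000 bp around it, 3 of these 10 had a peak in each library. Over all protein-coding genes, 28.8% in untreated cells and 24.4% after R848 had a gene-end peak. With the whole gene and 1000 bp around it, these shares were 49.1% and 44.5%.

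KAT8 peaks lay at the ends of a larger share of Rab genes than of protein-coding genes at large. Below, untreated and after R848 name the lists of these libraries, and a gene-end peak is one that reaches within 1000 bp of a gene's start or end. Such a peak was found at 31 of 59 Rab genes in untreated cells (52.5%), where 28.8% of all protein-coding genes had one. After R848, 29 had one (49.2%), against 24.4% of all genes. In both lists 24 had one (40.7%, against 17.3%), and at all 24 a gene-end peak of one list overlapped one of the other. A peak in untreated cells only was found at 7 (11.9%, against 11.5%) and after R848 only at 5 (8.47%, against 7.11%), shares near the background. With lists of equal length, made by taking as many of the strongest untreated peaks as there were R848 peaks, 4 were found in untreated cells only and 6 after R848 only. With q up to 0.05 these counts were also 4 and 6, so the order of the 2 counts turned under both settings. The shares of all genes under these settings are not given, so this turn cannot be compared with that of all genes. Neither list had a gene-end peak at the other 23 Rab genes. With peaks of q up to 0.05 only, 19 untreated and 21 R848 members remained (32.2% and 35.6%), against 16.7% and 15.1% of all genes. At 15 members such a peak was in both lists, a count for which the share of all genes is not given. With −log10 q of at least 5 the untreated and R848 members were 9 (15.3%, against 5.97%) and 10 (16.9%, against 4.39%). The peaks at members had a median fold over background of 3.83 in untreated cells and 3.59 after R848, and gene-end peaks of all genes 3.20 and 3.32. Fold here is the authors' value for a peak, which describes it within its own list.

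**Figure D1:**
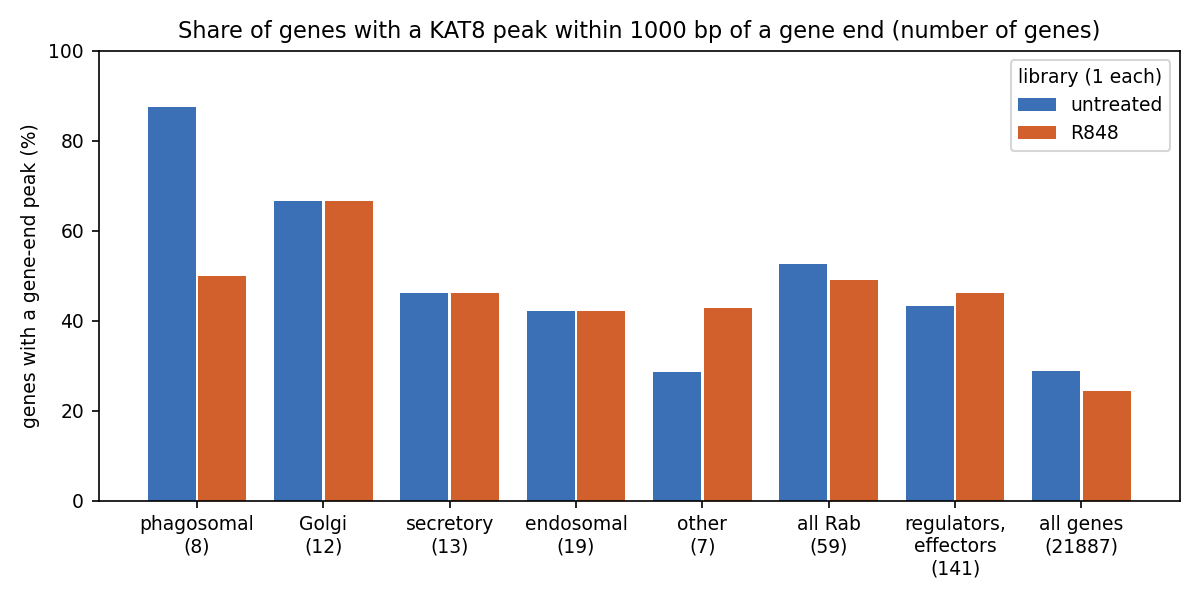
Percentage of genes with a KAT8 peak within 1000 bp of a gene end, for Rab genes by compartment, all 59 Rab genes, their regulators and effectors, and all protein-coding genes. Bars start at 0 and stand for 1 library each, with the number of genes under each pair. The untreated and R848 bars are equal for the Golgi, secretory and endosomal lists. They differ for the phagosomal list (87.5% and 50%), whose difference did not hold for peaks of q up to 0.05. For the other Rab genes they differ the opposite way (28.6% and 42.9%).

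The strongest peaks were at Rab10, Rab40c, Rab8a and Rab1a. Rab10 sends vesicles to the plasma membrane and Rab8a exocytic carriers, Rab1a controls transport from the endoplasmic reticulum to the Golgi, and Rab40c is a substrate adaptor of a ubiquitin ligase. Rab10 had 52 fragments at the summit in untreated cells (95% exact Poisson interval 38.8 to 68.2) and 45 after R848 (32.8 to 60.2). Its folds of 9.71 and 10 ranked 66th of 6301 and 58th of 5349 genes with a gene-end peak, within the first 1.05% and 1.08% of each list. Summits are the highest points of peaks that had passed a threshold, so these intervals cover counting error only. Rab8a had 31 fragments in each library (21.1 to 44.0), with folds of 7.32 and 8.56. Rab1a had 27 (17.8 to 39.3) and 33 (22.7 to 46.3), with folds of 6.41 and 9.40. Rab40c had 38 (26.9 to 52.2) and 26 (17.0 to 38.1), with folds of 7.65 and 6.92. All 4 had a −log10 q above 12 in both lists. The untreated and R848 peaks lay at chr12:3309471-3310365 and chr12:3309515-3310365 for Rab10, chr8:72160747-72161358 and chr8:72160864-72161593 for Rab8a, chr11:20200904-20201740 and chr11:20200671-20201401 for Rab1a and chr17:25919655-25920596 and chr17:25919528-25920606 for Rab40c.

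The promoter sequences of these 4 genes, of 2 endosomal genes with peaks in both lists (Rab5a and Rab22a) and of 2 without a gene-end peak (Rab11a and Rab25) are shown as the DNA at the start of genes with strong, moderate and no gene-end peaks. Each runs from 250 bases before the transcript start to 50 after it, 5′ to 3′ on the gene's strand, from RefSeq on GRCm38.p6, the assembly of mm10. Capitals mark letters that match 1 of 8 motifs on either strand: CACGTG (E-box), CCGGAA (ETS core), GGGCGG (GC box), GCGCATGC (NRF1 core), GCCATNTT (YY1 core), GGAATTTCC (kB site), TGACGTCA (CRE) and TGACTCA (AP-1). Rab10 lies at chr12:3309920-3310219, minus strand. Rab40c lies at chr17:25919665-25919964, minus strand. Rab8a lies at chr8:72160950-72161249, plus strand. Rab1a lies at chr11:20201162-20201461, plus strand.
Rab10: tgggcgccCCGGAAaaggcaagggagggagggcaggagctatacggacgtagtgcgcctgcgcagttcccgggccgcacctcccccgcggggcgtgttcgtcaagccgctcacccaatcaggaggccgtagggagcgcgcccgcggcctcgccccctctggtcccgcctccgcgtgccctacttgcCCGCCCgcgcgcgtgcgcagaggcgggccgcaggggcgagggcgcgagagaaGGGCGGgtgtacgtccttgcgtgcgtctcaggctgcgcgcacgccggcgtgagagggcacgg
Rab40c: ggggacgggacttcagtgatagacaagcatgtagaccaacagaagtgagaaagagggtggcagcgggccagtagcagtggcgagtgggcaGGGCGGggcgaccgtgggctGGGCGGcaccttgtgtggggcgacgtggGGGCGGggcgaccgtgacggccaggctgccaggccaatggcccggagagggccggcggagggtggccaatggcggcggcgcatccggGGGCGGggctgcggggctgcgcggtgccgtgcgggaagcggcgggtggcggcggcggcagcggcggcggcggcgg
Rab8a: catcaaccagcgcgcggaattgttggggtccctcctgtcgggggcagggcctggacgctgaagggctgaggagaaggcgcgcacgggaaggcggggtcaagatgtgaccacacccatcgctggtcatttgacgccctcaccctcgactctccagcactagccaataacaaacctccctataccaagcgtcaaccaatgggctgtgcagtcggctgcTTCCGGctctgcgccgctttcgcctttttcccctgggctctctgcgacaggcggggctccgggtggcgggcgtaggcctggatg
Rab1a: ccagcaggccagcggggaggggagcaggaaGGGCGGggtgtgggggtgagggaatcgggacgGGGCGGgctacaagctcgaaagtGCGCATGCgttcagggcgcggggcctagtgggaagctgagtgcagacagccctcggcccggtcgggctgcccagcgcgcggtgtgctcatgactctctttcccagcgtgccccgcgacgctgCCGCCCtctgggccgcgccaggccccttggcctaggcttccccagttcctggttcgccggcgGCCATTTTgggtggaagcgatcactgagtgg

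The summits fell at -96 and -79 bp from the start of Rab10 in untreated cells and after R848 (negative values lie upstream), at -422 and -321 bp for Rab40c, at -107 and -130 bp for Rab8a and at -112 and -210 bp for Rab1a. The Rab10, Rab8a and Rab1a summits thus lay within the letters printed, and those of Rab40c lay upstream of them. CpG dinucleotides numbered 43 in the Rab10 promoter, 36 in that of Rab40c, 27 in that of Rab1a and 23 in that of Rab8a. The median over the 17492 protein-coding genes of the promoter table was 15.

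The next promoters belong to the endosomal list. Rab5a lies at chr17:53478984-53479283, plus strand. Rab22a lies at chr2:173659595-173659894, plus strand. Rab11a lies at chr9:64737707-64738006, minus strand. Rab25 lies at chr3:88548230-88548529, minus strand. In Rab11a the ETS core was matched on both strands at 1 place, so these matches overlap. The summits of Rab22a lay at -118 and -402 bp, the second upstream of the letters printed.
Rab5a: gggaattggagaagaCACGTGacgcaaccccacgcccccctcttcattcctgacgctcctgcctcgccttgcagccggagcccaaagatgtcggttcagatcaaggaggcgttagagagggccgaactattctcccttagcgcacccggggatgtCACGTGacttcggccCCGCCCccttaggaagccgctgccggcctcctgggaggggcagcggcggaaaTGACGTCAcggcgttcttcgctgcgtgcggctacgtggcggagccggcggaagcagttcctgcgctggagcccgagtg
Rab22a: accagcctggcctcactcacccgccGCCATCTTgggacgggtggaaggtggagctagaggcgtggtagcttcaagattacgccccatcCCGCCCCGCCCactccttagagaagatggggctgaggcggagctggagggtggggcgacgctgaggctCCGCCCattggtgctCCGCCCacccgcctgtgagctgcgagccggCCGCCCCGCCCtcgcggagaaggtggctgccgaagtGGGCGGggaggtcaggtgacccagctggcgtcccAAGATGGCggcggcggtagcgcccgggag
Rab11a: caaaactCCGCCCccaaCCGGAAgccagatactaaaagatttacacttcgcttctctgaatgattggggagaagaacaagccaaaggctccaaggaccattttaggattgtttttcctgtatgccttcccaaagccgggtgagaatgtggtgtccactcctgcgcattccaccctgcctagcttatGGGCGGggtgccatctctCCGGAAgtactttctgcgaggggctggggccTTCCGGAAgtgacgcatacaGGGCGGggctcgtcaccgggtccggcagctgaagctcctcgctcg
Rab25: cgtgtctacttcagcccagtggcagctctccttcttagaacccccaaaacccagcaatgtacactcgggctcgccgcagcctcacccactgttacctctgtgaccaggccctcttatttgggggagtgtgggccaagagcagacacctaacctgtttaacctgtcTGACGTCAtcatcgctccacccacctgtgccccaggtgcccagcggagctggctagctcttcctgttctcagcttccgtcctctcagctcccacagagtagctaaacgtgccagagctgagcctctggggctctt

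The endosomal list held 19 genes, of which 8 had a gene-end peak in each library (42.1%) and 6 had one in both. All 3 Rab5 genes, whose products define the early endosome, were among these 6. Rab5a had a fold of 4.81 in untreated cells and 5.53 after R848, with 20 and 19 fragments (12.2 to 30.9 and 11.4 to 29.7) at chr17:53478781-53479238 and chr17:53478920-53479380. Its summits were at -177 and -129 bp from its start. Rab5b had folds of 5.04 and 5.25, with 21 and 18 fragments, and Rab5c had folds of 4.35 and 3.83, with 18 and 13 fragments. The R848 list had a second, weaker peak at the far end of Rab5c (fold 2.76, 9 fragments). Rab22a, which sorts cargo in early and recycling endosomes, had the highest mean fold of the list (5.26 and 5.46, with 22 and 19 fragments, at chr2:173659398-173660181 and chr2:173659255-173659862). The recycling genes Rab11b (4.35 and 4.97) and Rab4b (3.83 and 4.42) were also in both lists. Their close relatives Rab11a and Rab4a lacked a gene-end peak in both lists. The nearest peak to an end of Rab11a was 55317 bp away in untreated cells and 23141 bp away after R848.

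Rab7, the GTPase of late endosomes and lysosome fusion, had a weak gene-end peak in untreated cells only (fold 2.29, −log10 q 0.163, 9 fragments, chr6:88044802-88045051). Inside the gene, far from both ends, Rab7 had overlapping peaks in both lists, with a fold of 2.29 in untreated cells and 3.87 after R848 (9 and 13 fragments) at 10773 and 10846 bp downstream of a listed start. Rab35, which acts at the plasma membrane and in fast recycling, had a gene-end peak in untreated cells only (2.52, −log10 q 0.462, 10 fragments, chr5:115631769-115631984). Its summit lay -164 bp from the Rab35 start and -7 bp from that of the adjoining non-coding gene 1110006O24Rik. Peaks after R848 only were those of Rab31, of transport between the Golgi and endosomes (3.59, −log10 q 2.07, 12 fragments, chr17:65772457-65772692), and Rab12, of transport from recycling endosomes to lysosomes (3.04, −log10 q 1.01, 10 fragments, chr17:66519042-66519582). No gene-end peak was found at Rab4a, Rab7b, Rab9, Rab9b, Rab11a, Rab15, Rab17, Rab21 and Rab25. Of these, Rab17 and Rab25 are known from epithelia and Rab15 from neurons. Rab17 did have an untreated peak inside the annotated gene, 42 bp downstream of its listed start (2.98, 12 fragments). Rab3a, known from synaptic vesicles, and Rab28, linked to photoreceptor cilia, had gene-end peaks in both lists. A link between the peaks and expression in macrophages was not tested.

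Of 8 phagosomal and lysosome-related Rab genes, 7 had a gene-end peak in untreated cells (87.5%) and 4 after R848 (50%). Rab14, of the Golgi, endosomes and phagosomes, had a fold of 4.35 in untreated cells and 3.59 after R848 (18 and 12 fragments, 10.7 to 28.4 and 6.20 to 21.0, at chr2:35200635-35201447 and chr2:35200995-35201297). Rab39, of phagosome acidification, had 4.58 and 3.87 (19 and 13 fragments, at chr9:53706005-53706492 and chr9:53706298-53706595), and Rab43, of the Golgi and phagosome, had 3.66 and 4.97 (15 and 17 fragments, at chr6:87811536-87812159 and chr6:87811746-87812106). Rab32, of lysosome-related organelles, had 12 fragments in both libraries, with folds of 2.98 and 3.59, at chr10:10557976-10558298 and chr10:10558065-10558315. The 3 members in untreated cells only were weak. Rab29, a partner of the kinase LRRK2, had a fold of 2.98 with 12 fragments and a −log10 q of 1.26, at chr1:131867177-131867376. Rab20, of phagosome maturation, and Rab38, a relative of Rab32, had folds of 2.29 each with 9 fragments and a −log10 q of 0.163, at chr8:11478456-11478655 and chr7:88430090-88430360. None of the 3 reached a q of 0.05, and with that threshold in both lists the phagosomal counts were 3 in untreated cells and 4 after R848, which turns the direction of the difference. Rab20 also had an intragenic peak in both lists (3.66 and 3.55, with 15 and 12 fragments), 14354 and 14302 bp downstream of its start. Rab34 had no peak. A broader phagosome list of 18 genes, which takes in members of the other lists such as Rab5a, Rab7 and Rab10, had 14 in untreated cells and 11 after R848, and with q up to 0.05 it had 9 and 11.

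**Figure D2:**
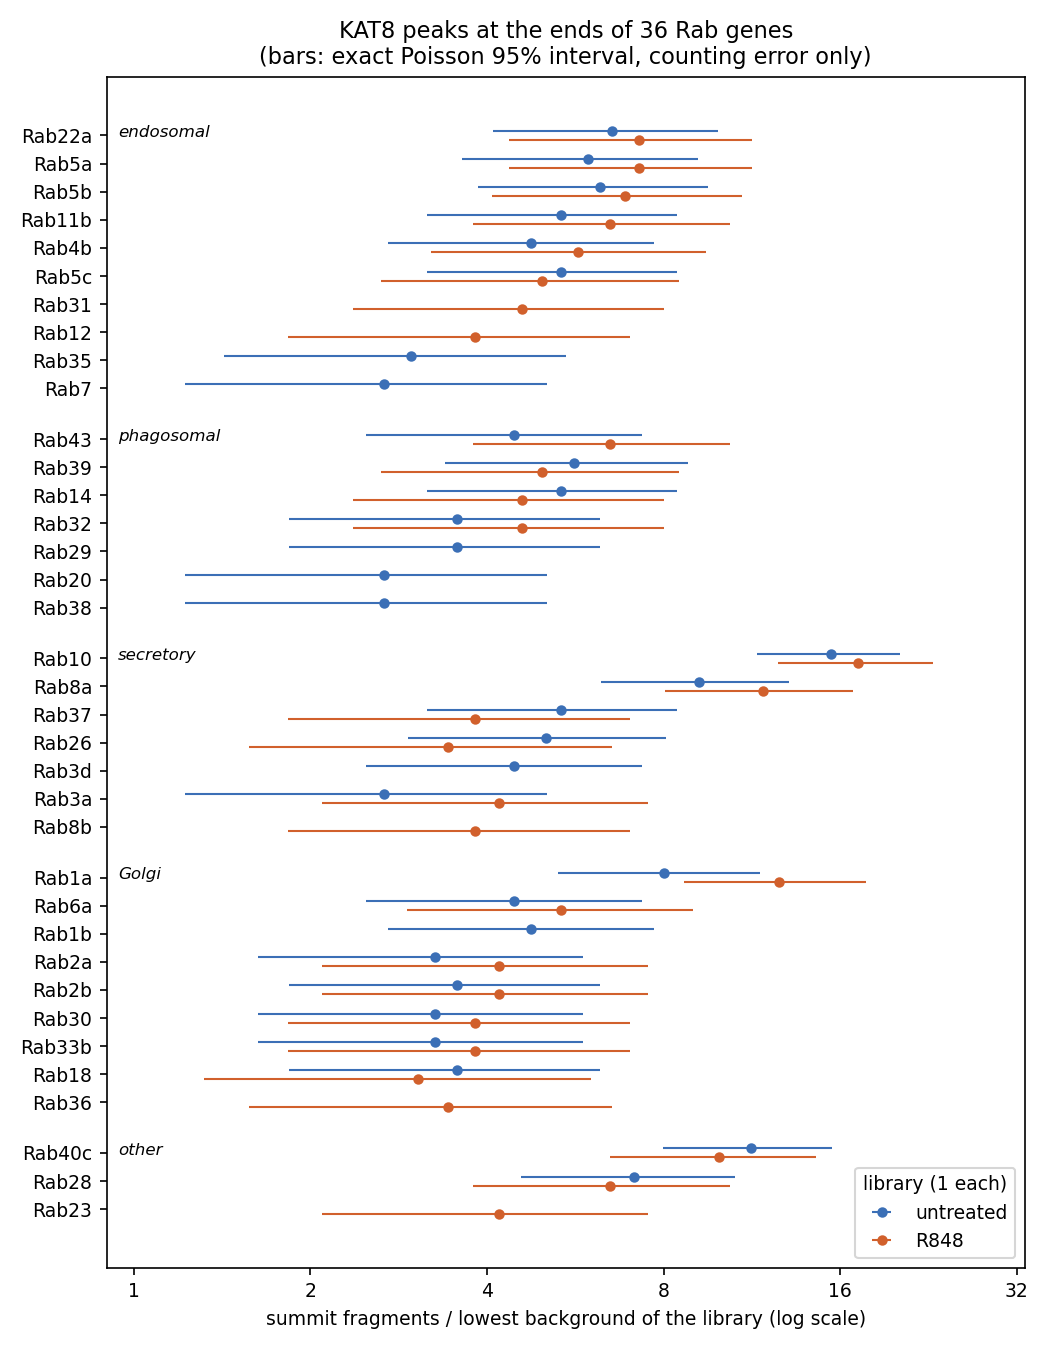
Summit fragments divided by the lowest background of the library, on a log axis, for the 36 Rab genes with a gene-end peak in either list, by compartment; bars are exact Poisson 95% intervals of the count. Rab10 lies highest (15.4 and 17.2 times background), and the untreated and R848 intervals overlap for all 24 members with both points.

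Among 13 secretory Rab genes, 6 had a gene-end peak in each library (46.2%) and 5 had one in both. With q up to 0.05 the counts were 5 in untreated cells and 3 after R848, where 16.7% and 15.1% of all genes had such a peak. Rab26 and Rab37, whose summits lay at a neighbour's start, were among the 5 and not among the 3. The 5 with a gene-end peak of any q in both lists were Rab10, Rab8a, Rab3a, Rab26 and Rab37. Rab3a, Rab26 and Rab37 are known for regulated exocytosis. Rab3a, a synaptic vesicle GTPase, had a fold of 2.29 in untreated cells and 3.32 after R848 (9 and 11 fragments). The strongest R848 peak of Rab3a did not overlap the untreated one, which a second R848 peak did (fold 3.04, 10 fragments). At Rab26 (4.12 and 2.76, 17 and 9 fragments) and Rab37 (4.35 and 2.88, 18 and 10 fragments) the summits lay at the listed start of a neighbour. They were at -124 and -68 bp from the start of Traf7 beside Rab26, and at -67 and -152 bp from that of Slc9a3r1 beside Rab37. These 2 peaks cannot be given to the Rab gene over its neighbour. Rab3d, of granule exocytosis, had a gene-end peak in untreated cells only (3.66, −log10 q 2.85, 15 fragments, chr9:21918156-21918386). Rab8b, the relative of Rab8a, had one after R848 only (3.04, −log10 q 1.01, 10 fragments, chr9:66919530-66919832). Rab27a and Rab27b, which dock lysosome-related granules at the plasma membrane, had none, nor had Rab3b, Rab3c, Rab13 and Rab44. A weak R848 peak inside Rab27a (2.49, 8 fragments, −log10 q 0.233) lay -226 bp from an internal start of that gene.

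Of 12 Golgi and endoplasmic reticulum Rab genes, 8 had a gene-end peak in each library (66.7%) and 7 had one in both. After Rab1a came Rab6a, of retrograde transport through the Golgi, with a fold of 3.66 in untreated cells and 4.14 after R848 (15 and 14 fragments, at chr7:100607396-100608053 and chr7:100607277-100608076). Its summits were 335 and 338 bp downstream of its start and nearer that of Mrpl48, at -299 and -302 bp. The other 5 had lower folds in both lists. Rab2a and Rab2b are of transport between the endoplasmic reticulum and the Golgi. Rab18 is of lipid droplets, Rab30 is a Golgi GTPase, and Rab33b binds the autophagy protein ATG16L1. The folds of these 5 genes ran from 2.75 to 2.98 in untreated cells and from 2.49 to 3.32 after R848. The Rab30 summits lay at 146 and -156 bp from the listed start of another gene, 4632427E13Rik, and Rab30 had no listed start of its own. Its peaks cannot be given to Rab30 over that gene. None of the 5 had a q up to 0.05 in untreated cells, so that 3 Golgi members were left there at that threshold. After R848, Rab2a and Rab2b reached it (3.32, −log10 q 1.51 and 11 fragments each), and 4 Golgi members were left. Rab1b, the paralogue of Rab1a, had a peak in untreated cells only (3.89, −log10 q 3.47, 16 fragments, chr19:5106971-5107212), the highest pileup of the 12 members with a peak in 1 list only. Rab36 had one after R848 only (2.62, −log10 q 0.536, 9 fragments, chr10:75037178-75037481). Rab6b, Rab19 and Rab33a had none.

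The remaining 7 genes fall outside these compartments. Beside Rab40c, Rab28, linked to photoreceptor cilia, had peaks in both lists, with folds of 5.72 and 4.97 (24 and 17 fragments, 15.4 to 35.7 and 9.90 to 27.2, at chr5:41707569-41708355 and chr5:41707321-41708428). The R848 peak of Rab28 was the widest at any member, at 1108 bp. Rab23, a regulator of Hedgehog signalling, had a peak after R848 only (3.32, −log10 q 1.51, 11 fragments, chr1:33719883-33720224). Rab24, Rab39b, Rab40b and Rab42 had none. No gene-end peak was found at the 4 members of the X chromosome (Rab9, Rab9b, Rab33a and Rab39b), where 4.66% of the 966 protein-coding genes had one in untreated cells and 4.14% after R848.

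At all 24 members with peaks in both lists the counting intervals of the libraries overlapped after division by the lowest background of each library, and 0.343% of the 3792 genes with peaks in both lists had intervals that did not. The ratio of R848 to untreated scaled pileup, taken between the strongest gene-end peaks, ranged from 0.681 at Rab26 to 1.57 at Rab1a and Rab3a. Its median over the members was 1.17. At Rab3a the strongest R848 peak did not overlap the untreated one, so that ratio compares different positions. At Rab26 the summits lay at the start of Traf7. The median of the 3792 genes was 1.07. The ratio was above 1 at 16 members and below 1 at 8, and above 1 at 59.5% of the 3792 genes. These counts rest on the scaling: in unscaled fragments R848 was higher at 3 members (Rab1a, Rab3a and Rab43), equal at 3 and lower at 18, and higher at 19.2% and lower at 73.4% of the 3792 genes. At Rab1a the scaled pileup was 8.01 (5.28 to 11.7) in untreated cells and 12.6 (8.67 to 17.7) after R848, and at Rab10 it was 15.4 (11.5 to 20.2) and 17.2 (12.5 to 23.0). The 7 members with an untreated peak only had 9 to 16 fragments, and 2 of them, Rab1b and Rab3d, reached a q of 0.05. The 5 with an R848 peak only had 9 to 12, and 2 of them, Rab23 and Rab31, reached it. None of these 12 peaks overlapped a peak of the other list.

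The gene-end peaks of Rab genes were chosen for reaching within 1000 bp of either gene end. At the members with a listed transcript start, the strongest summits lay on the side of that start. RefSeq promoter entries were found for 48 of the 59 genes. Of the 31 untreated members with a gene-end peak 25 had an entry, and the summit of the strongest peak was within 500 bp of a listed start at all 25 and within 250 bp at 22. After R848, 23 had an entry, with all 23 summits within 500 bp and 17 within 250 bp. For all genes with a gene-end peak and an entry, chosen in the same way, 75.4% of 5165 untreated and 74.0% of 4370 R848 summits were within 500 bp, and 62.3% and 60.1% within 250 bp. Peaks inside the genes, and the weaker R848 peak at the far end of Rab5c, 23596 bp from its start, are not among these summits. Peaks of members without an entry are left out too, among them those of Rab26 and Rab37, whose summits lay at a neighbour's start. Upstream summits numbered 14 and downstream ones 11 in untreated cells, and 12 and 11 after R848, with medians of -77 and -15 bp. Widths had a median of 488 bp (200 to 942) and 461 bp (200 to 1108). A peak within 1000 bp of a listed start was found at 26 of 48 members in untreated cells (54.2%) and 24 after R848 (50%), against 28.7% and 24.1% of 17492 genes. One of the former was Rab17, whose untreated peak (2.98, 12 fragments) lay inside the annotated gene and 42 bp downstream of its listed start. At 7 untreated and 6 R848 members another protein-coding gene ended within 1000 bp of the peak: Mia beside Rab4b, Pmel beside Rab5b, Tox4 beside Rab2b, Mrpl48 beside Rab6a, Traf7 beside Rab26, Slc9a3r1 beside Rab37 and, in untreated cells, Klc2 beside Rab1b.

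**Figure D3:**
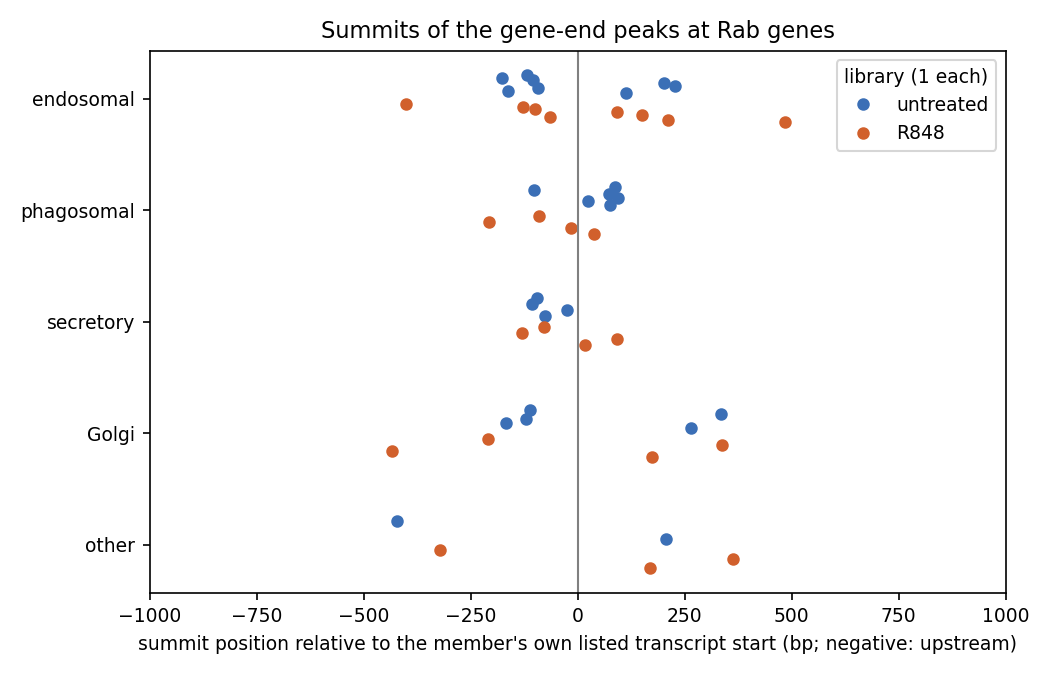
Position of the strongest gene-end summit relative to the gene's own listed transcript start (bp, negative upstream) for Rab genes in the promoter table, by compartment. Points are single genes in 1 library each. All summits lie between -434 and 485 bp, on both sides of the start.

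Rab promoters were rich in CpG. The 48 listed genes had a median of 24.5 CpG dinucleotides in 300 bases (5 to 45; the highest value was taken where a gene had several starts), against 15 over 17492 genes. The 29 with a gene-end peak in either list had a median of 27 and the 19 without one 16; over all genes these medians were 23 and 8. Of the 20 Rab genes with 26 CpG or more, 14 had an untreated and 12 an R848 peak (70% and 60%), against 50.6% and 44.2% of all genes in that range. Of the 15 with 16 to 25 CpG, 7 and 8 had one (46.7% and 53.3%, against 39.5% and 33.3%), and of the 12 with 6 to 15 CpG, 4 and 3 (33.3% and 25%, against 22.7% and 18.4%). Among genes without a gene-end peak, Rab6b (42 CpG), Rab15 (38) and Rab24 (32) were CpG-rich. Rab32 (10), Rab11b (12) and Rab29 (12) had peaks with few CpG. CpG content and the presence of a peak moved together over all genes, and the part of CpG content in the Rab shares was not tested.

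**Figure D4:**
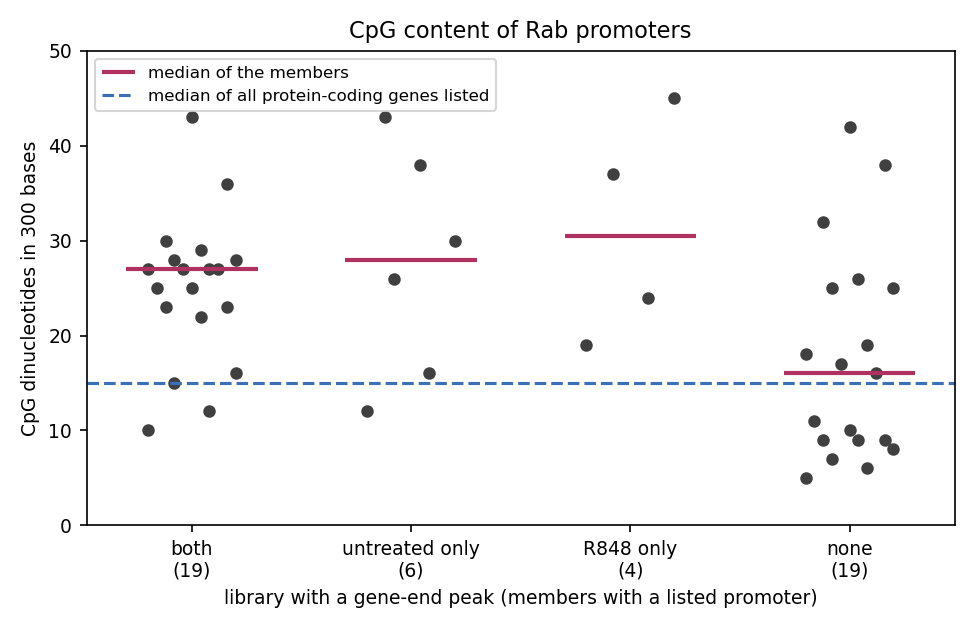
CpG dinucleotides in the 300-base promoter of the 48 listed Rab genes, by the library that held a gene-end peak. Points are genes, red lines the medians of the members and the dashed line the median of all 17492 listed protein-coding genes (15). Members without a gene-end peak have a median of 16 and spread from 5 to 42, and those with peaks in both lists have a median of 27.

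The GC box was found in 36 of the 48 Rab promoters (75%), against 49.2% of all listed genes, and in 24 of the 29 with a peak (82.8%), against 68.4% of all genes with a peak. The ETS core was found in 14 (29.2%, against 20.9%) and the E-box, the core of the lysosomal gene element bound by TFEB, in 6 (12.5%, against 8.91%). Among genes with a gene-end peak, the ETS core was in 27.6% of Rab promoters against 28.4% of all. The E-box was there in 10.3% against 11.2%, so neither share was higher in Rab genes. The E-box genes were Rab5a, Rab20, Rab21, Rab23, Rab24 and Rab27a, of which the first, the second and Rab23 had a gene-end peak. The YY1 core was found in 5 (10.4%, against 7.46%). The AP-1 site was found in 3 (6.25%, against 5.40%) and the NRF1 core in 2 (4.17%, against 3.94%), shares near those of all genes. The CRE was found in 2 (4.17%, against 2.54%) and the kB site in 1, Rab34 (2.08%, against 0.429%). A match is a run of letters only.

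Inside the genes, more than 1000 bp from both ends, 16 Rab genes had 28 peaks in untreated cells and 12 had 20 peaks after R848. That was 27.1% and 20.3% of members, against 28.8% and 26.4% of all protein-coding genes. Per 100 kb of gene interior, Rab genes held 1.40 peaks in untreated cells and 1.00 after R848, against 1.67 and 1.47 over all genes. These peaks were weaker than those at the ends, with median folds of 2.75 and 3.12. Of the 28 untreated peaks 6 overlapped an R848 peak, and 8 had a q up to 0.05. Of the 20 R848 peaks 7 overlapped an untreated peak, and 10 had a q up to 0.05. At that threshold 6 members in untreated cells and 8 after R848 had a peak inside, which turns the direction of the 16 against 12. For these overlaps and for this threshold inside genes, the values over all genes are not given. Across the whole untreated list 36.3% passed this q limit, and across the whole R848 list 41.1%. The turn therefore cannot be read as particular to Rab genes. Rab7b, a Rab that acts between endosomes and the Golgi, had the strongest of the peaks inside Rab genes. Its fold was 4.42 (19 fragments, −log10 q 5.23) at chr1:131690372-131690998 in untreated cells only. A second peak of Rab7b was in both lists (4.04 and 4.42, with 17 and 15 fragments). Rab31 had 5 untreated and 2 R848 peaks, and Rab6b had 2 and 4. Taking the whole gene and 1000 bp around it, 41 members had a peak in untreated cells (69.5%, against 49.1% of all genes) and 38 after R848 (64.4%, against 44.5%). No peak of either list was found at 15 members: Rab9, Rab9b, Rab11a, Rab13, Rab15, Rab19, Rab21, Rab24, Rab25, Rab33a, Rab34, Rab39b, Rab40b, Rab42 and Rab44.

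The genes that load, lipidate, switch off and read Rab proteins had gene-end peaks at 61 of 141 in untreated cells (43.3%, against 28.8% of all protein-coding genes) and 65 after R848 (46.1%, against 24.4%). The list of these genes was chosen with earlier results of these data known, so the contrast is descriptive only. Of 8 lipidation and recycling genes 4 and 3 had one (50% and 37.5%). Rabif had one in both lists (2.52 and 2.76). Rabggta, a subunit of the enzyme that prenylates Rabs, and Gdi2 had one in untreated cells only (3.43 each), and Rabggtb, the partner subunit of Rabggta, after R848 only (2.76). Of 42 exchange factor genes 17 and 20 had one (40.5% and 47.6%), led by Mon1b, of the Rab7 exchange factor (5.66 and 4.89), Rin3, of Rab5 (4.37 and 5.79), and the TRAPP subunit gene Trappc4 (4.12 and 4.97). Dennd1a, of Rab35, had one in untreated cells only (4.35). Dennd6b had one after R848 only (4.85), which overlapped an untreated peak outside the window.

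Of 36 GTPase-activating genes 16 and 13 had one (44.4% and 36.1%, against the same 28.8% and 24.4% of all genes). Evi5l (7.41 and 6.91), Tbc1d10b (7.12 and 6.01) and Tbc1d17 (5.44 and 4.98) led those in both lists, and the first 2 exceeded all endosomal Rab genes in fold. Rab3gap2 was in untreated cells only (3.43) and Tbc1d4, the Akt substrate that acts on Rab10, after R848 only (3.59). Of 55 effector genes 24 and 29 had one (43.6% and 52.7%), 22 in both lists. Osbpl1a, a cholesterol sensor that binds Rab7 (4.58 and 7.18), Golga2, a Golgi tether of Rab1 (4.81 and 5.53), and Fyco1, a kinesin adaptor of Rab7 (5.04 and 4.70), led them. The early endosome tether gene Eea1 had peaks in both (3.20 and 3.59), as had the Rab7 effector gene Rilp (3.89 and 2.86). Ehbp1 was in untreated cells only (3.43) and Plekhm2 after R848 only (3.32).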

How the data were processed

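KAT8 CUT&Tag was measured in 1 untreated and 1 R848 library of mouse bone marrow-derived macrophages, grouped by the treatment label. Each sample has its own list. The names of the R848 peaks carry both time points, and whether the untreated library entered that calling is not stated. Bowtie 0.12.8, MACS2 2.2.7.1, DiffBind and mm10 are named, without roles, per the submitters' processing notes. Other settings, and any control, are not given in the labels. The deposited columns hold, per peak, −log10 p, −log10 q, the ratio of the summit to local background (the fold) and a score; the lowest −log10 p was 2.01 in both lists. The deposited score is 10 times −log10 p, so it was not used further. The summit position is the deposited offset from the peak start.

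Summit fragments and local background were solved from the deposited fold, read as (fragments + 1) / (background + 1), and from the Poisson tail given by −log10 p; the share of whole values, within 0.05, was 100% (untreated) and 99.996% (R848). Intervals are exact Poisson 95%. Genes came from RefSeq on GRCm38.p6; a peak counted with at least 1 bp within 1000 bp of either gene end. Where a gene had several such peaks, the one of highest −log10 p is given. The interval code and the solver were tested on simulated data and checked with bedtools 2.31.1; python 3.11.15 and scipy 1.17.1 were used. The members, the compartment lists and the list of regulators were chosen with earlier results of these data known. Each Rab gene was put in 1 list by its main compartment. Every member is named; of the regulators, up to 3 with the highest mean fold in both lists and up to 1 per direction in 1 list only, with ties named, are given by rule. The full position is given for Rab5a, Rab7, Rab14, Rab20, Rab32, Rab1a and, per list, the 2 members of highest mean fold and up to 2 per direction in 1 list only. Eea1, Rilp and the genes picked out for CpG, motifs or intragenic peaks were chosen after their values were seen. Alternatives were a q of 0.05, −log10 q of at least 5, windows of 500 or 3000 bp, summits, lists of equal length, whole genes, stricter overlap and scaled pileups. Chosen after seeing the data were windows at transcript starts, a q of 0.05 against any peak of the other list and a q of 0.05 inside genes. Of the symbols listed, Dennd2b was not matched. Values of 1 regulator that the rule names are not reported here.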

Additional observations from a re-analysis of the deposited data

How the results depend on the processing

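Of 80 alternative values, 58 were within 1.5 times the reported count and 22 were not. With q up to 0.05, members with a gene-end peak numbered 19 (untreated), 15 (both lists), 4 (untreated list only) and 6 (R848 list only), and the lists had 3 phagosomal (untreated), 3 secretory (R848), and 3 and 4 Golgi members (untreated and R848). With −log10 q of at least 5 the 5 family counts were 9 (untreated), 10 (R848), 8 (both), 1 (untreated only) and 2 (R848 only). Untreated-only members numbered 11 with windows of 3000 bp and 4 with lists of equal length, where R848-only members numbered 6. With whole genes, R848-only members numbered 3 and secretory members 10 in each library. The broad phagosome list had 14 and 11. With q up to 0.05 against any peak of the other list, 2 members were untreated only and 2 R848 only. Inside genes, 6 untreated and 8 R848 members had a peak of q up to 0.05, against 16 and 12 with all peaks. With untreated summits scaled to the R848 background, rounded and held to the R848 limit, no member was lost, but the weakest member peaks, of 9 fragments, came by rounding to that limit of 7, so this is no sign of stability. No paired analysis was possible because each group held 1 library, and leaving out a library was not possible for the same reason. The depth limits the weak members most. The lowest summits called had 8 fragments in untreated cells and 7 after R848, and the medians over all peaks were 12 and 10. Member peaks of up to 10 fragments lie near these limits.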
